A study of Mus musculus with 9 samples.

Results

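The genes described here carry glucose into the cell, break it down to pyruvate and decide what becomes of the pyruvate. They are 35 of the 24421 genes in the count table, taken by symbol: 3 glucose transporters, 3 hexokinases, 4 enzymes of the upper steps, 4 PFKFB enzymes, 3 enzymes of the middle steps, 8 of the lower steps, 4 genes of lactate formation and export, 4 pyruvate dehydrogenase kinases and 2 subunits of pyruvate dehydrogenase. RNA was sequenced from 9 tumors, 1 library each, of which 4 had grown under vehicle and 5 under R-propranolol. All were allografts of bEnd.3, mouse brain endothelial cells carrying polyoma middle T antigen and a model of infantile hemangioma, in the flank of male Nu/Nu nude mice, which lack T cells. R-propranolol is the stereoisomer of propranolol with little activity at the beta-adrenergic receptor. It was given by intraperitoneal injection from the second day after the cells, and the vehicle was ethanol in buffered saline. Because the whole tumor was sequenced, the RNA also comes from host vessels, stroma, blood cells and any tissue cut out with the tumor, and fewer cells of a type cannot be told apart from less RNA per cell. Tumors are numbered within their group (vehicle 1 to 4, R-propranolol 1 to 5). The labels of vehicle 1 and vehicle 2 share a number that differs among the other tumors. No label says what it stands for, so these 2 may not be independent.

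In glycolysis a transporter of the Slc2a (GLUT) family admits glucose, a hexokinase traps it as glucose 6-phosphate, and phosphofructokinase makes the committed step, for which the PFKFB enzymes supply the activator fructose 2,6-bisphosphate. Most steps have several isozymes from separate genes, and muscle uses its own set (GLUT4, Pfkm, Pgam2, Eno3). Pyruvate is turned into lactate by lactate dehydrogenase and exported by monocarboxylate carriers, or enters mitochondria and is oxidized by pyruvate dehydrogenase, which the PDK kinases switch off. Endothelial cells are known to draw most of their energy from glycolysis, GLUT1 (Slc2a1) is the standard marker of infantile hemangioma endothelium, and many of these genes are targets of hypoxia-inducible factor.

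Counts over genes lay between 20599904 and 24949010 in the vehicle tumors and between 21084749 and 27852630 in the R-propranolol tumors. R-propranolol 5 stood apart: 20 skeletal muscle genes took 12.8% of its counts, and it held 42249 CPM of the muscle actin Acta1 and 9444 CPM of the creatine kinase Ckm. CPM are counts divided by the library total, scaled by TMM (edgeR's adjustment for composition) and given per 1e+06 counts. The same 20 genes took 0.0468% of the counts in vehicle 1 and 0.0467% in vehicle 3, and 0.001% to 0.00195% in the other 6 tumors. Adipocyte markers also ran high in R-propranolol 5 (summed CPM of 10 genes 5283, against 124 to 448 elsewhere), while R-propranolol 2 had the highest fibroblast level (summed CPM of 8 genes 31932, against 5303 to 8591 in the 7 tumors other than R-propranolol 5, which had 15629). All 13 endothelial markers were detected in every tumor, with a summed level of 932 to 1356 CPM. Single markers in R-propranolol 5 went opposite ways within this sum. Flt1 was at 111 CPM there, against 324 to 633 CPM elsewhere, and Vwf at 99.3 CPM, against 4.59 to 16 CPM. Comparisons are therefore given for 9 tumors and for the 8 tumors without R-propranolol 5.

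Differences are log2 fold changes of R-propranolol over vehicle, fitted by edgeR and written as value ± standard error. Of the 35 genes, 34 had enough counts for the test with either set of tumors. The exception was Eno1, with 0 to 2 counts per tumor. Over 9 tumors, 26 of the 34 had a higher mean in the R-propranolol group and 8 a lower one, and their median log2 fold change was 0.56, against 0.03 for all 13901 genes tested, of which 54.3% were higher. Without R-propranolol 5, 22 were higher and 12 lower and the median was 0.10, against 0.01 for all 13743 genes, of which 53.7% were higher. No gene of the pathway passed the test. In edgeR's quasi-likelihood test the adjusted p of the 34 genes ran from 0.876 to 1 over 9 tumors and was 1 for each over 8, and 0 of all genes passed 0.05 (0%) with either set of tumors. DESeq2 passed 2 genes over 9 tumors and 13 over 8, none of them in this pathway. At its default settings it gives no p to a gene with an outlying tumor, so some genes may not have been tested by it.

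At an unadjusted p under 0.05, edgeR's test picked 6 of the 34 over 9 tumors (Slc2a4, Hk2, Pgam2, Eno3, Pdk2 and Pdk4), all higher with R-propranolol. Among all genes 320 were past that level (2.3%), and 280 were past it and higher (2.01%). Over 8 tumors it picked 3 genes (Slc2a1, Hk1 and Hk2), again all higher, where 519 of all genes were past it (3.78%) and 364 were past it and higher (2.65%). Only Hk2 was in both. The fits share 8 tumors, so being in both is not separate evidence. Over 9 tumors Hk2 was highest in R-propranolol 5, at 521 CPM against 75.2 to 190 CPM elsewhere. Hk2 was also the only one of the 34 genes whose groups did not overlap. All its R-propranolol tumors lay above all its vehicle tumors, a pattern held by 88 of all genes over 9 tumors (0.633%) and 251 over 8 tumors (1.83%). These shares leave out genes with all R-propranolol tumors below all vehicle tumors. Over 8 tumors, 1 gene among 34 is near the share of all genes.

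**Figure D1:**
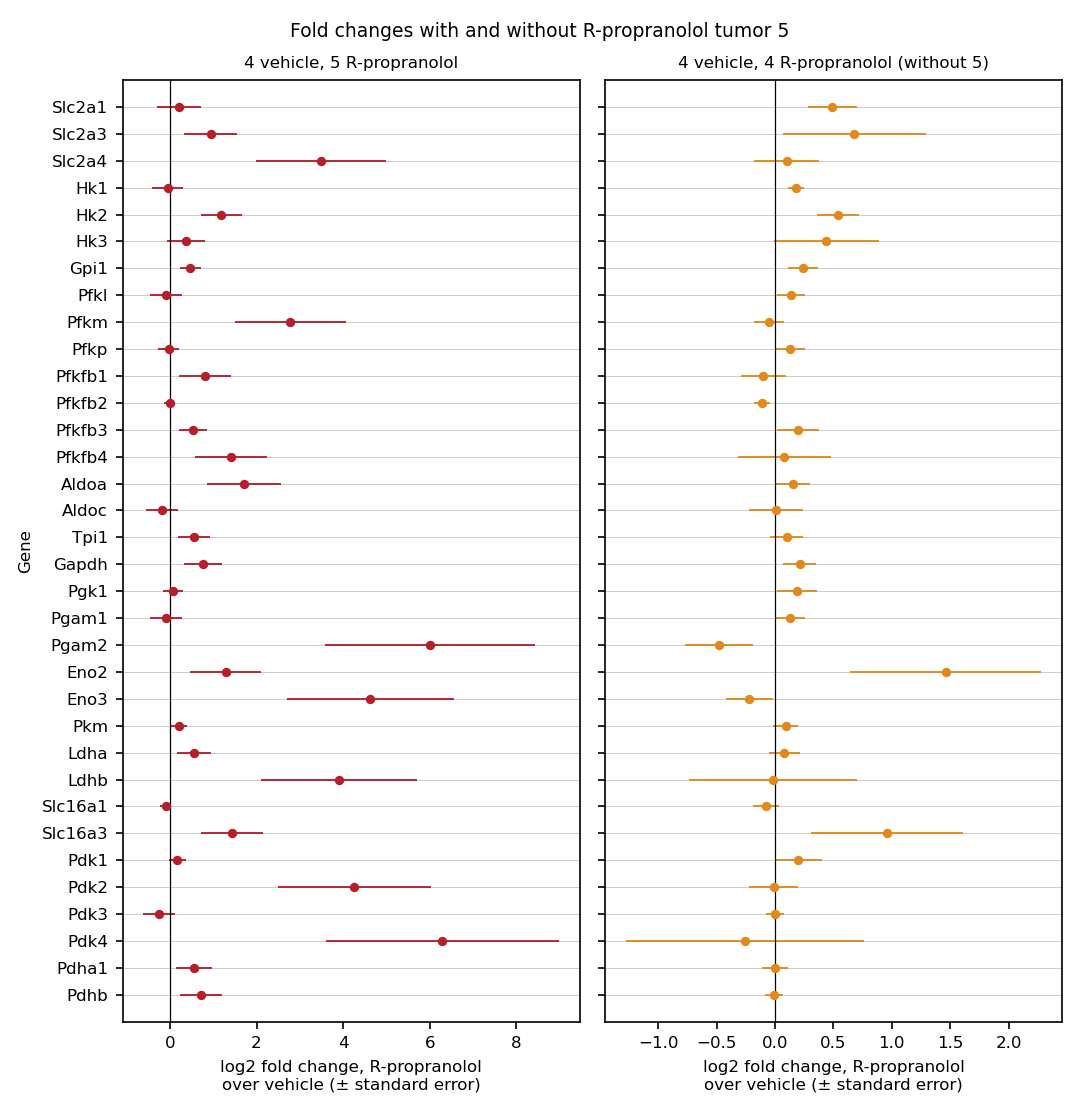
Log2 fold change of R-propranolol over vehicle tumors (horizontal axis) for the 34 genes tested, with all 9 tumors on the left and without R-propranolol 5 on the right; points are fitted values, bars 1 standard error, and the 2 panels have different scales. On the left Pgam2 and Pdk4 lie at 6.0 and 6.29 with the longest bars, while on the right both lie below 0. The bars of Slc2a1, Hk1 and Hk2 on the right lie clear of 0, as do those of other genes such as Gpi1 and Pgam2.

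In 8 of the 9 tumors Slc2a1 supplied nearly all transporter transcripts. Slc2a1 (GLUT1, chr4:119108711-119137983, plus strand of GRCm38) was at 643, 946, 660 and 1013 CPM in vehicle tumors 1 to 4 and at 983, 1283, 1448, 866 and 166 CPM in R-propranolol tumors 1 to 5. R-propranolol 2 and 3 were above all vehicle tumors, R-propranolol 1 and 4 were inside their range, and R-propranolol 5 was far below it. Over 9 tumors the log2 fold change was 0.22 ± 0.51. Without R-propranolol 5 the mean was 1145 ± 268 CPM (SD, n = 4) against 815 ± 192 CPM (SD, n = 4), which fitted as a log2 fold change of 0.49 ± 0.21 (unadjusted p = 0.0479, adjusted p = 1). The exact permutation test of the mean log2 CPM, two-sided over 70 groupings of the 8 tumors, gave 0.143. This is the share of groupings with a difference at least as large, and the smallest share possible is 0.0286. Vehicle 1 and 3, the lowest, were also the vehicle tumors with muscle transcripts, and the part of these in the result was not tested.

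Slc2a4 (GLUT4, the insulin-responsive transporter of muscle and fat) was at 8.26, 8.94, 7.78 and 11 CPM in the vehicle tumors and at 8.82, 5.2, 13.9, 10.5 and 466 CPM in R-propranolol 1 to 5. A single tumor was high, 33.6 times the highest of the others. The log2 fold change was 3.48 ± 1.5 over 9 tumors and 0.10 ± 0.28 over 8. Slc2a3 (GLUT3) lay between 1.85 and 16.3 CPM, highest in R-propranolol 2, with 13.6 CPM in R-propranolol 5.

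Hexokinase held the one gene without overlap between the groups. Hk2 (hexokinase 2, the inducible form that binds mitochondria, chr6:82725025-82774454, minus strand) was at 75.2, 101, 106 and 92.9 CPM in the vehicle tumors and at 108, 190, 128, 121 and 521 CPM in R-propranolol 1 to 5. The lowest R-propranolol tumor was only just above the highest vehicle tumor. R-propranolol 5 was 2.74 times the highest of the other tumors, and the part of its muscle transcripts in this was not tested. Without R-propranolol 5 the means were 93.8 ± 13.6 and 137 ± 36.7 CPM (SD, n = 4 each), which fitted as 0.54 ± 0.18 (unadjusted p = 0.0167, adjusted p = 1). The exact permutation test gave 0.0286, the smallest value that 4 against 4 allows, and with all 9 tumors it gave 0.0556, where the log2 fold change was 1.19 ± 0.48 (adjusted p = 0.876). In the 15 alternative analyses of the 8 tumors Hk2 stayed under the unadjusted level of 0.05 in 14, and missed it without vehicle 1. Its log2 fold change ran from 0.34 to 0.63 when a tumor was left out, lowest without R-propranolol 2, the tumor with the highest fibroblast and macrophage levels of the 8, whose part in the Hk2 level was not tested. Slc2a1 and Hk1 stayed under it in 9 each. Slc2a1 shares 105 exon bases with the antisense gene Gm12868 and Hk1 shares 157 with Hk1os, and since no source used here states the strand setting of the counting, reads there cannot be told apart.

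Hk1, the housekeeping hexokinase, was at 252, 287, 251 and 285 CPM in the vehicle tumors and at 287, 309, 327, 302 and 75.9 CPM in R-propranolol 1 to 5. R-propranolol 2, 3 and 4 were above all vehicle tumors, R-propranolol 1 was level with vehicle 2, and R-propranolol 5 was far below all others. Fitted, the log2 fold change was 0.18 ± 0.07 (adjusted p = 1) over 8 tumors and -0.05 ± 0.36 (adjusted p = 0.97) over 9. The exact permutation test over 8 tumors gave 0.0571, above the smallest possible value. Hk3, the form of white blood cells, ranged from 12.6 to 60.6 CPM and was highest in R-propranolol 2, which also had the highest macrophage level of the 8 tumors (summed CPM of 9 markers 3495, against 743 to 2148). The part of these cells in the Hk3 level was not tested.

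**Figure D2:**
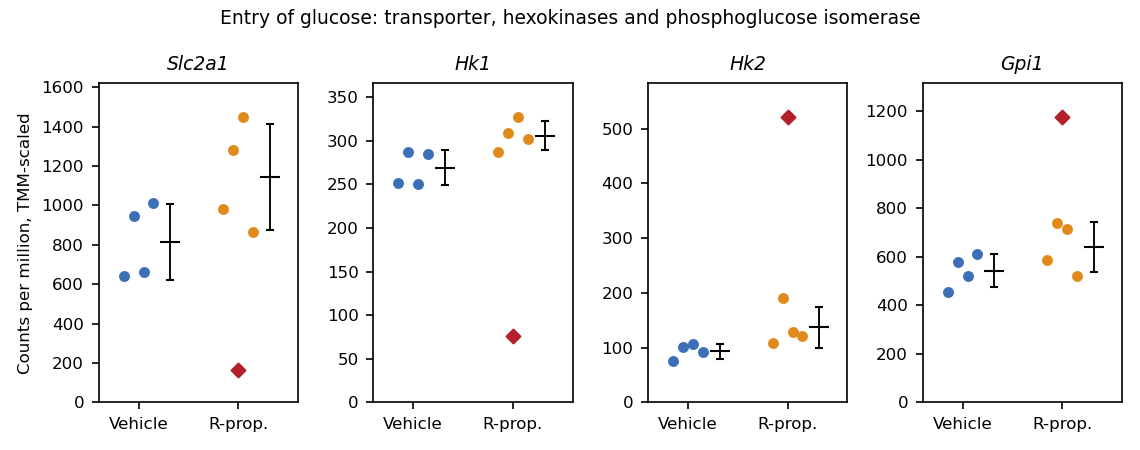
CPM (vertical axis, linear, from 0) of 4 genes of glucose entry in each tumor; blue points are vehicle tumors 1 to 4, orange points R-propranolol 1 to 4, and the red diamond R-propranolol 5, with mean ± SD of each 4 in black (R-propranolol 5 left out). In R-propranolol 5 Slc2a1 and Hk1 lie at 166 and 75.9 CPM, below all others, whereas Hk2 and Gpi1 lie at 521 and 1176 CPM, above all others.

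The promoters of Slc2a1 and Hk2 are shown because these are 2 of the 3 genes past an unadjusted 0.05 over 8 tumors, and each has a single start in the table. Each sequence runs 5′ to 3′ on the gene's strand, from 250 bases before to 50 bases after the RefSeq start on GRCm38.p6. Capitals mark the core of the hypoxia response element, ACGTG or GCGTG on either strand, which on the other strand reads CACGT or CACGC.
Slc2a1 (chr4:119108495-119108794, plus strand): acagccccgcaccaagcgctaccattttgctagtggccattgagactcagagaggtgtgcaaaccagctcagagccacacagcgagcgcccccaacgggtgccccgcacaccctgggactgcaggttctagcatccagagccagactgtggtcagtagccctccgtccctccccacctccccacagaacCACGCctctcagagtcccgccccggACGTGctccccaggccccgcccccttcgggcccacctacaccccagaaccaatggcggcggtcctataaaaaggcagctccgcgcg
Hk2 (chr6:82774405-82774704, minus strand): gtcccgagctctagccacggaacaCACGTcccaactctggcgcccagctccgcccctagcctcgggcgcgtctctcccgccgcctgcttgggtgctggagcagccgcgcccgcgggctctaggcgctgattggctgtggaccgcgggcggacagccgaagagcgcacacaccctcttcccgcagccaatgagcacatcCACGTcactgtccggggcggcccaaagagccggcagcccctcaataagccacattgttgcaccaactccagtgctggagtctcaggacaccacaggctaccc
Both windows held 2 matches. Of the 35 genes 33 had an entry in the promoter table, with 52 promoters in all, some of them overlapping, and 39 of these 52 held the core, compared with 43.8% of all 32851 promoters in the table. A match of letters is not a binding site.

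Among the upper steps, Gpi1 (glucose 6-phosphate isomerase) was at 456, 578, 523 and 611 CPM in the vehicle tumors and at 588, 739, 715, 521 and 1176 CPM in R-propranolol 1 to 5. R-propranolol 4 lay at the level of vehicle 3, and R-propranolol 2, 3 and 5 were above all vehicle tumors. This gave a log2 fold change of 0.47 ± 0.24 over 9 tumors and 0.24 ± 0.13 over 8. Pfkm, the muscle phosphofructokinase, was at 94.2, 102, 91.2 and 111 CPM in the vehicle tumors and at 101, 77.9, 117, 88.1 and 3032 CPM in R-propranolol 1 to 5. The groups overlapped apart from R-propranolol 5, which was 25.9 times the next tumor, and the log2 fold change went from 2.78 ± 1.28 to -0.05 ± 0.13 without it. The liver type Pfkl (304 to 455 CPM) and the platelet type Pfkp (153 to 223 CPM) were close in the 2 groups and lower in R-propranolol 5, at 104 and 95.1 CPM.

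The PFKFB enzymes set the level of fructose 2,6-bisphosphate. Pfkfb3, the form best known from endothelial cells, was at 95.2, 91.4, 101 and 72 CPM in the vehicle tumors and at 92.8, 144, 82.6, 93.5 and 241 CPM in R-propranolol 1 to 5. R-propranolol 2 and 5 were above the vehicle tumors and the other 3 within their range, with a log2 fold change of 0.54 ± 0.32 over 9 tumors and 0.20 ± 0.18 over 8. Pfkfb2, the heart form, was at 28.5, 30.1, 29.1 and 28.5 CPM and at 27.4, 27.6, 28.8, 24.3 and 37.2 CPM. It varied little among the vehicle tumors (SD 0.75 CPM, n = 4), and its log2 fold change over 8 tumors was -0.11 ± 0.07. Of its transcript, 23% of the windows of 150 bases, the read length, also occur in the overlapping gene Gm29427, so some of its reads may have been left uncounted. Pfkfb4 was at 10.3, 6.9, 8.69 and 4.6 CPM and at 6.21, 15.2, 4.67, 6.27 and 69.6 CPM, with a log2 fold change of 1.41 ± 0.84 over 9 tumors and 0.08 ± 0.40 over 8. Pfkfb1 was at 4.51 to 7.14 CPM in 8 tumors and at 30.8 CPM in R-propranolol 5.

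The middle steps, in which aldolase splits the sugar and triose phosphate isomerase interconverts the products, were led by Aldoa. It was at 1408, 1895, 1606 and 2118 CPM in the vehicle tumors and at 1786, 1889, 2389, 1759 and 20905 CPM in R-propranolol 1 to 5. Aldoa is the aldolase of muscle as well as of most other tissues, and R-propranolol 5 exceeded the next tumor 8.75 times. The fitted log2 difference was 1.71 ± 0.86 over 9 tumors and 0.15 ± 0.15 over 8. Tpi1 ranged from 673 to 1042 CPM and reached 2560 CPM in R-propranolol 5, while the brain aldolase Aldoc stayed at 1.26 to 4.52 CPM throughout.

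Of the lower steps, which yield ATP, the muscle forms of the mutase and the enolase lay furthest from the rest in R-propranolol 5. Pgam2, the muscle phosphoglycerate mutase, was at 8.09, 5.36, 6.03 and 3.8 CPM in the vehicle tumors and at 5.19, 2.6, 4.53, 4.34 and 1842 CPM in R-propranolol 1 to 5. R-propranolol 5 stood 228 times above the next tumor, and vehicle 1 and 3, with their traces of muscle transcripts, were the highest of the rest. The log2 fold change was 6.0 ± 2.43 (adjusted p = 0.876) over 9 tumors and -0.48 ± 0.29 (adjusted p = 1) over 8. Eno3, the muscle enolase, was at 57.4, 51.9, 39.8 and 56.3 CPM and at 45.1, 29.9, 57.5, 43.9 and 6169 CPM. Here the groups of the 8 tumors overlapped, and the log2 fold change of 4.63 ± 1.93 turned to -0.22 ± 0.20 without R-propranolol 5.

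The promoters of Pgam2 and Eno3 are shown because these genes differed most between R-propranolol 5 and the other tumors among the enzymes of glycolysis. They are written as above, with capitals at CAGCTG, a form of E-box to which the myogenic factors such as MyoD can bind and which reads the same on both strands.
Pgam2 (chr11:5803747-5804046, minus strand): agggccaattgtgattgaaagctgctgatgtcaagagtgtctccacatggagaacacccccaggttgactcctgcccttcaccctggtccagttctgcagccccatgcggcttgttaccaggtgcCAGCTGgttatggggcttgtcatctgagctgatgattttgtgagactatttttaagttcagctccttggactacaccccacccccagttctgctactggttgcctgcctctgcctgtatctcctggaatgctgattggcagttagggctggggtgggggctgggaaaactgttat
Eno3 (chr11:70656926-70657225, plus strand): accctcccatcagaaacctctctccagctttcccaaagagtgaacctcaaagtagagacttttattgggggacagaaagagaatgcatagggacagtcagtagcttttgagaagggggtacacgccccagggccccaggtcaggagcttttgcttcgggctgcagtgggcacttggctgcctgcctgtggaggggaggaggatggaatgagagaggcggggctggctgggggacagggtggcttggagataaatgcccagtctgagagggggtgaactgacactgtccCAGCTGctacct
Each window held 1 match. Of the 52 promoters of the pathway 8 held CAGCTG, compared with 16.3% of all promoters.

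Pkm, pyruvate kinase, drew more reads than any other of the 34 genes in the vehicle tumors, at 2728, 3314, 3225 and 3725 CPM, and stood at 3421, 3441, 3682, 3292 and 4779 CPM in R-propranolol 1 to 5. R-propranolol 1 to 4 lay within the vehicle range and were closer to each other, and the log2 fold change was 0.20 ± 0.20 over 9 tumors and 0.09 ± 0.11 over 8. Eno2, the neuronal enolase, was at 3.92, 5.47, 8.97 and 2.37 CPM and at 7.09, 42, 5.6, 2.91 and 5.85 CPM. Its log2 fold change of 1.46 ± 0.82 over 8 tumors rested on R-propranolol 2, without which it was 0.00. That tumor also had the highest summed level of 8 neural and glial markers, 60.1 CPM against 3.38 to 16.1 CPM in the other 7, and the part of nerve tissue was not tested. Gapdh ranged from 1677 to 2770 CPM, Pgk1 from 1100 to 1986 CPM and Pgam1 from 260 to 395 CPM in the 8 tumors, with 7903, 1075 and 89 CPM in R-propranolol 5.

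Levels of these last 3 genes are uncertain. Windows of 150 bases that recur exactly in transcripts of other genes made up 74% of the Gapdh transcript, 66.1% of Pgk1 and 37.9% of Pgam1, while 28 of the 35 genes had none. For Eno1, the main enolase of most cells, the share was 49%, led by its near-identical copy Eno1b, which held 1423 to 6556 counts where Eno1 held 0 to 2. Eno1b was at 174, 194, 167 and 196 CPM in the vehicle tumors and at 188, 262, 215, 215 and 94.6 CPM in R-propranolol 1 to 5. R-propranolol 2, 3 and 4 lay above the vehicle range and R-propranolol 1 inside it, with a log2 fold change of 0.26 ± 0.10 (unadjusted p = 0.0338, adjusted p = 1) over 8 tumors.

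At the pyruvate branch, both lactate dehydrogenase genes were set apart in R-propranolol 5, and the lactate carriers were not so divided. Ldha, the dehydrogenase subunit that favors lactate, was at 1206, 1596, 1469 and 1814 CPM in the vehicle tumors and at 1542, 1642, 1739, 1524 and 4803 CPM in R-propranolol 1 to 5. The 4 R-propranolol tumors other than 5 fell inside the vehicle range, with a log2 fold change of 0.08 ± 0.13 against 0.56 ± 0.39 with all 9 tumors. Ldhb, the subunit of oxidative tissues, was at 2.11, 0.732, 3.65 and 1.38 CPM and at 2.12, 4.48, 0.611, 0.615 and 141 CPM. It was nearly absent outside R-propranolol 5, and the log2 fold change went from 3.91 ± 1.80 to -0.02 ± 0.72 without that tumor.

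Slc16a3 (MCT4, the lactate exporter of glycolytic cells) was at 32.6, 45.7, 52.4 and 22.5 CPM in the vehicle tumors and at 35.4, 201, 29.1, 34.2 and 216 CPM in R-propranolol 1 to 5. It was high in R-propranolol 2 and 5 only, and the other 3 lay within the vehicle range. Fitted, the log2 fold change was 1.43 ± 0.72 over 9 tumors, 0.96 ± 0.65 over 8, and -0.22 when R-propranolol 2 was left out as well. The high fibroblast and macrophage levels of R-propranolol 2 go along with this, and their part was not tested. Slc16a1 (MCT1) was the flattest of the lactate genes at 106 to 151 CPM, with 111 CPM in R-propranolol 5.

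Of the PDH kinases, which shut pyruvate out of oxidation, Pdk1 and Pdk3 held most of the transcripts per kilobase in 8 tumors. Pdk1, a target of hypoxia-inducible factor, was at 104, 164, 150 and 195 CPM in the vehicle tumors and at 171, 201, 201, 132 and 158 CPM in R-propranolol 1 to 5. The groups overlapped, and vehicle 1 was the lowest tumor. This gave a log2 fold change of 0.17 ± 0.20 over 9 tumors and 0.20 ± 0.20 over 8. Pdk3 was at 57.5, 64.1, 55 and 64.5 CPM and at 59.5, 55.8, 64.7, 60.6 and 14.2 CPM, with a log2 fold change of 0.00 ± 0.08 over 8 tumors. Its interval was among the narrowest of the 34 genes, and R-propranolol 5 alone was low.

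Pdk2 was at 5.72, 5.32, 4.44 and 3.89 CPM in the vehicle tumors and at 4.48, 6.04, 5.28, 3.53 and 445 CPM in R-propranolol 1 to 5. Pdk4, the form induced by fasting in muscle and heart, was at 1.51, 0.578, 1.31 and 0.142 CPM and at 0.423, 2.28, 0.251, 0.041 and 347 CPM. Both were abundant in R-propranolol 5 alone. Their log2 fold changes were 4.26 ± 1.76 and 6.29 ± 2.69 over 9 tumors and -0.01 ± 0.21 and -0.26 ± 1.02 over 8.

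The subunits of pyruvate dehydrogenase overlapped between the groups. Pdha1, the catalytic alpha subunit, was at 184, 197, 162 and 213 CPM in the vehicle tumors and at 180, 161, 212, 202 and 640 CPM in R-propranolol 1 to 5. Pdhb, the beta subunit, was at 76.6, 77.3, 72.4 and 77.7 CPM and at 75.3, 67.2, 87, 72.8 and 324 CPM. Without R-propranolol 5 the log2 fold changes were 0.00 ± 0.11 and -0.01 ± 0.08, and with it 0.56 ± 0.42 and 0.72 ± 0.49.

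**Figure D3:**
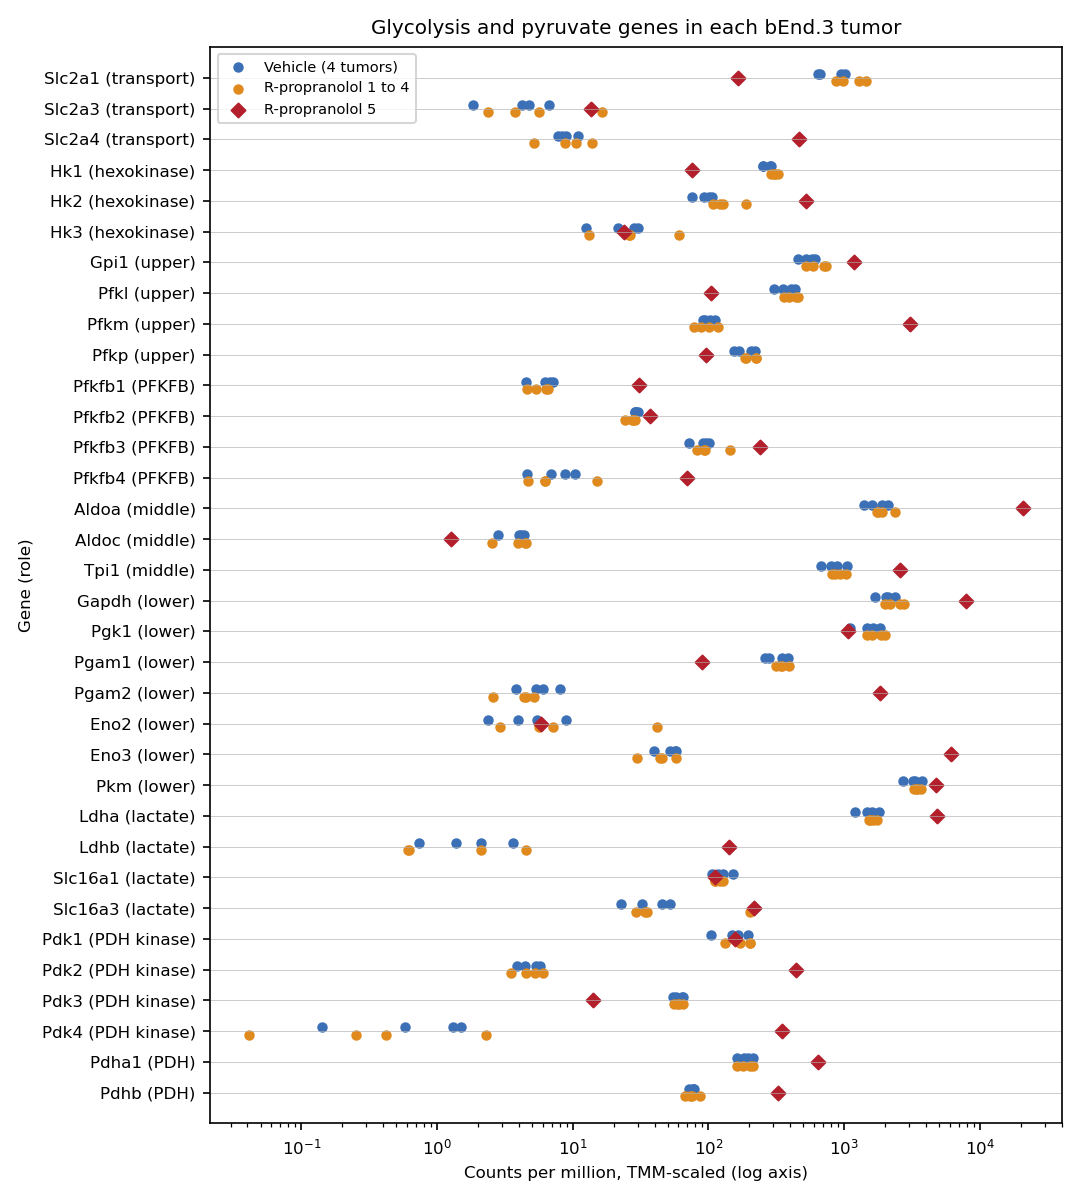
CPM on a log axis (horizontal) of the 34 tested genes in each tumor, ordered by step; blue points are the 4 vehicle tumors, orange points R-propranolol 1 to 4, and red diamonds R-propranolol 5. The blue and orange points overlap for all genes but Hk2, while the red diamond lies to the right of all others for 21 genes and to the left for 8.

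R-propranolol 5 was above all other tumors for 21 of the 34 genes (61.8%) and below them all for 8 (23.5%), against 36.5% and 42.1% of all genes tested. Those below were Slc2a1, Hk1, Pfkl, Pfkp, Aldoc, Pgk1, Pgam1 and Pdk3. The part of its muscle and fat transcripts in these levels was not tested. The isozyme make-up of the steps differed accordingly. Counts per kilobase of exon were taken as a share of all isozymes of a step, which needs no scaling between libraries. In the vehicle tumors Slc2a1 made up 98.6% ± 0.196 of the transporters listed, Pgam1 95.6% ± 1.96 of the mutases and Pfkl 56.1% ± 1.81 of the phosphofructokinases (SD, n = 4 each). In R-propranolol 5 the largest share was that of Slc2a4 (73.1%), Pgam2 (98%) and Pfkm (97.6%). Hk2 made up 29.3% ± 2.87 of hexokinase (SD, n = 4) in the vehicle tumors and 85% in R-propranolol 5, where Pdk2 and Pdk4 made up 53.1% and 37.2% of the PDH kinases. Aldolase and lactate dehydrogenase had the same main form as elsewhere, with Aldoa at 100% and Ldha at 94.2%.

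Among the other 8 tumors the leading form of a step was the same in each, apart from the PDH kinases and the lactate carriers. In R-propranolol 1 to 4 Slc2a1 made up 98.9% ± 0.142, Pgam1 97.3% ± 0.757, Pfkl 58.4% ± 2.7 and Hk2 33.6% ± 3 (SD, n = 4 each). Hk2 took 25.3%, 29.9%, 32.1% and 29.7% of hexokinase in the vehicle tumors and 30.8%, 37.7%, 33.8% and 32.2% in R-propranolol 1 to 4, so that these shares overlapped although the Hk2 levels did not. Of the PDH kinases Pdk1 and Pdk3 shared the lead, and which of them was ahead turned with the length used. Per kilobase of the whole exon model Pdk3 was ahead in 6 tumors, by as little as 48.8% to 48.7% in vehicle 4, and Pdk1 in R-propranolol 2 and 3. With the length of the principal transcript Pdk1 was ahead in 6 tumors, and in raw counts it was ahead in all 8. Of the lactate carriers Slc16a1 led in 7 tumors, but in R-propranolol 2 Slc16a3 made up 60% of the pair against 11% to 25.6% in the 7 others.

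**Figure D4:**
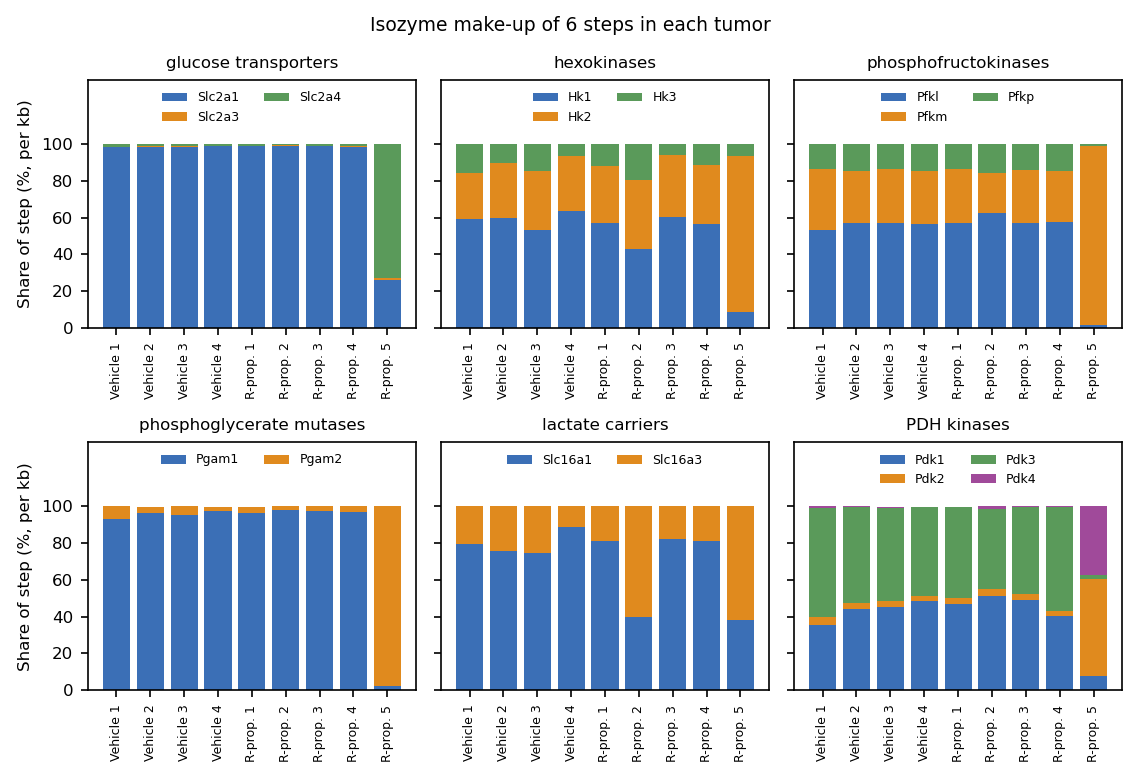
Share of each isozyme in its step (vertical axis, percent of counts per kilobase of exon) for 6 steps, with 1 bar per tumor and 1 color per gene. In R-propranolol 5 Slc2a4, Pfkm and Pgam2 make up 73.1%, 97.6% and 98% of their steps, and R-propranolol 2 alone among the others has more Slc16a3 (60%) than Slc16a1.

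Tumors within a group also differed from each other along the pathway. Among the 8 tumors, vehicle 1 was the lowest for 14 of the 34 genes (41.2%), against 13.5% of all genes, and R-propranolol 3 was the highest for 13 (38.2%), against 14.3%. R-propranolol 2 was the highest for 12 (35.3%), against 28.6% of all genes. A list of 18 hypoxia-inducible genes outside glycolysis, 17 of them tested, had vehicle 1 as the lowest tumor for 15 of 17, and R-propranolol 2 and 3 as the highest for 10 and 7. R-propranolol 2 was the lowest for 6 of the 34 pathway genes (17.6%) and for 0 of the 17, against 24.3% of all genes. Vehicle 4 was the highest for 5 pathway genes (14.7%) and for 0 of the 17, against 12.9% of all genes. The summed level of the list was 2834, 4429, 4190 and 5381 CPM in the vehicle tumors and 5041, 6471, 6565, 3633 and 1871 CPM in R-propranolol 1 to 5. All 17 had a higher mean over 8 tumors, against 53.7% of all genes, and their median was 0.38, against 0.01. Past an unadjusted p of 0.05 were Adm, the vessel peptide adrenomedullin (log2 fold change 0.93 ± 0.40), and Mxi1, a Myc antagonist (0.38 ± 0.15), and 0 passed after adjustment in edgeR's test. Of all genes 3.78% were past that unadjusted level over 8 tumors. Over 9 tumors 14 of the 17 were higher and 3 lower, with a median of 0.28, against 54.3% higher and a median of 0.03 for all genes. The hypoxia regulators Hif1a and Epas1 had log2 fold changes of 0.17 ± 0.24 and 0.24 ± 0.13 over 8 tumors. The part of oxygen supply in the levels of Slc2a1 and Hk2 was not tested.

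A further 69 genes of connected pathways served as context, of which 55 were tested. Over 9 tumors 45 were higher and 10 lower with R-propranolol (median log2 fold change 0.48), and over 8 tumors 27 were higher and 28 lower (median -0.01). Of all genes, 54.3% were higher over 9 tumors (median 0.03) and 53.7% over 8 (median 0.01). Glycogen genes were the most abundant of them in R-propranolol 5, with a summed level of 10940 CPM against 668 to 966 CPM elsewhere, and 6040 CPM of this came from the muscle glycogen phosphorylase Pygm. All 18 genes of pyruvate entry and the redox shuttles were higher over 9 tumors, and 8 were higher over 8 tumors. The 7 genes of the pentose phosphate pathway split into 3 higher and 4 lower over 9 tumors and 2 higher and 5 lower over 8, and their summed level was 851 to 1013 CPM in all 9.

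Among those past an unadjusted p of 0.05 in edgeR's test over 9 tumors were Phkg1, the muscle phosphorylase kinase subunit (log2 fold change 6.40), and of the regulators Prkaa2, the AMPK subunit of muscle (6.05). Over 8 tumors they included the phosphatase regulator Pdpr (0.36 ± 0.15) and the glycogen synthase Gys1 (0.33 ± 0.14) on the higher side, and Eno4 (-0.84 ± 0.32) and Pygm (-2.70 ± 0.96) on the lower side. None passed after adjustment. Of the 55 genes, 2 were past the unadjusted level over 9 tumors, and over 8 tumors 3 were past it and higher and 2 past it and lower. Among all genes 2.3% were past it over 9 tumors and 3.78% over 8. Pygm was at 18, 0.848, 10.6 and 0.902 CPM in the vehicle tumors and at 1.31, 1.36, 0.719 and 1.31 CPM in R-propranolol 1 to 4, high in the same vehicle tumors as the muscle genes.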

How the data were processed

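The authors prepared libraries from total RNA of frozen tumors with the NEBNext Ultra kit and sequenced pairs of 150-base reads. The submitters' processing notes name STAR, HTSeq, edgeR and the mm10 build. The sources used here do not state versions, annotation or strand setting. The values deposited by the authors are raw counts per gene symbol, not normalized. Reads in no gene (13.4% to 15.4% of the listed total) stayed out of library sizes, as did reads with several places (3.46% to 7.86%), so genes with near-identical copies are undercounted.

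Groups were compared with edgeR 4.0.16 in R 4.3.3 (filterByExpr at its settings of 10 counts and 15 in total, TMM, glmQLFit, glmQLFTest) over all genes, with p adjusted by Benjamini and Hochberg. The fit was run on 9 tumors and, with its own filter and scaling, on 8. Standard errors are the log2 fold change divided by the root of F. CPM used TMM-scaled library sizes of the 9 tumors. Exact permutation tests compared mean log2 CPM (prior count 0.25) in 126 or 70 groupings, and their smallest p are 0.00794 and 0.0286. Of 34 genes so tested, 0 were under 0.05 over 9 tumors and 1 over 8. Each library was treated as a separate tumor, although the vehicle tumors whose labels share a number may not be independent. The p-values of these fits and permutation tests take the tumors as independent.

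The members and gene lists were chosen with earlier results of these data known. Named genes are, in each role, those highest per kilobase and with the smallest p in either fit, those without overlap, those whose fits differ by over 1 in log2, and Slc2a1. Places and exon lengths are from GENCODE M21, in which 23336 of 24421 symbols had 1 place. Promoters are from RefSeq (GRCm38.p6). Scripts were tested on simulated counts. Alternatives were DESeq2 1.42.0, its size factors, library size alone, 1 CPM in 4 tumors as filter, no filter, a replicate block, summing vehicle 1 and 2, leaving out each tumor and, added after the data were seen, the length of the principal transcript. A result on a listed gene outside the members is not reported here.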

Additional observations from a re-analysis of the deposited data

Results flagged for a closer look

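Of 46 groups of tumors examined (23 genes in each treatment group), 12 held a tumor set apart from the others. Its gap in log2 CPM was larger than the 95% critical value of Dixon's test, which chance alone exceeds in about 1 group in 20. That rate does not apply to these genes, since some were named because their fits with and without R-propranolol 5 differed. Genes measured in the same tumors are also not independent, so the count of 12 was not set against chance. In all 12 the tumor set apart was R-propranolol 5. It was set apart upward for Slc2a4 (466 CPM), Pfkm (3032 CPM), Aldoa (20905 CPM), Pgam2 (1842 CPM), Eno3 (6169 CPM), Ldha (4803 CPM), Pdk2 (445 CPM), Pdha1 (640 CPM) and Pdhb (324 CPM). It was set apart downward for Slc2a1 (166 CPM), Hk1 (75.9 CPM) and Pdk3 (14.2 CPM). The same tumor stood out in the read totals, which no comparison used: 7.86% of its listed reads had several places, against 3.69% to 3.99% in the vehicle tumors. In this tumor 20 genes of skeletal muscle took 12.8% of the counts, and their part in each of these levels was not tested.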

How the results depend on the processing

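No gene of the pathway passed an adjusted p of 0.05 in any alternative. DESeq2 called 2 genes over 9 tumors and 13 over 8, where edgeR called 0. It was run at its default settings, which give no p to a gene with an outlying tumor. Genes high in R-propranolol 5 alone may thus be missing from its counts without having been tested. Genes past an unadjusted 0.05 over 9 tumors numbered 320, and 656 with DESeq2, 626 without a filter, 100 with vehicle 1 and 2 summed and 103 to 737 when a tumor was left out; over 8 tumors they numbered 519, 268 with the replicate block and 353 to 743 when a tumor was left out. Pathway genes past it over 9 tumors were 6, and 2 with DESeq2 (Hk2 and Slc16a3), 0 with vehicle 1 and 2 summed, and 0 to 10 when a tumor was left out: 0 without any one of the vehicle tumors, 10 without R-propranolol 4 and 3 without R-propranolol 5. Over 8 tumors they were 3, and 0 to 4 when a tumor was left out: 0 without vehicle 1, 1 without vehicle 3 or R-propranolol 3 (Hk2 both times).

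Same-numbered tumors did not deviate together throughout (correlations 0.03, 0, -0.573 and 0.397). So few tumors cannot exclude a pairing by number. With the replicate block 1 pathway gene, Hk2, was past 0.05 unadjusted with either set of tumors. R-propranolol 5 has no vehicle tumor of its number, so the block takes it out of the comparison; the 9-tumor log2 fold changes then became 0.19 for Hk1, -0.06 for Pfkm, -0.01 for Pfkfb4, -0.48 for Pgam2, -0.24 for Eno3, -0.26 for Ldhb, -0.01 for Pdk2, -0.58 for Pdk4, 0.00 for Pdha1 and -0.01 for Pdhb, and the 8-tumor value of Pfkfb4 became -0.02, each opposite in sign to the value reported.

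With library size alone the median of all genes over 9 tumors moved from 0.03 to -0.10, that of the pathway genes from 0.56 to 0.34, and Pfkfb4 over 8 tumors to 0.00. Pfkfb2 over 9 tumors turned to 0.01 with DESeq2, its size factors or the 1 CPM filter and to 0.02 with vehicle 1 and 2 summed, which turned Pdk2 over 8 tumors to 0.06. When each tumor was left out in turn, the 9-tumor values ran from -0.15 to 0.18 for Hk1, -0.05 to 3.17 for Pfkm, -0.11 to 0.08 for Pfkfb2, -0.48 to 6.42 for Pgam2, -0.22 to 5.05 for Eno3, -0.02 to 4.39 for Ldhb, -0.01 to 4.67 for Pdk2, -0.26 to 6.76 for Pdk4, 0.00 to 0.71 for Pdha1 and -0.01 to 0.92 for Pdhb, each lowest without R-propranolol 5, except that Hk1 was highest without it. The 8-tumor values ran from -0.14 to 0.30 for Slc2a4, -0.16 to 0.04 for Pfkm, 0.00 to 0.28 for Pfkfb3, -0.42 to 0.26 for Pfkfb4, -0.02 to 0.18 for Ldha, -0.81 to 0.46 for Ldhb, -0.22 to 1.21 for Slc16a3, -0.13 to 0.11 for Pdk2, -0.05 to 0.03 for Pdk3, -1.85 to 0.13 for Pdk4, -0.07 to 0.07 for Pdha1 and -0.09 to 0.05 for Pdhb. Slc2a1, Hk1, Hk2, Gpi1, Aldoa, Pkm and Pdk1 stayed above 0 over 8 tumors in every alternative.

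The make-up of steps depended on the length used. With the principal transcript in place of the whole exon model the vehicle share was 98.1% for Slc2a1, 74.2% for Hk1 (59.0% as reported), 99.9% for Aldoa and 47.5% for Pdk3 (52.6%), and with raw counts it was 98.3% for Slc2a1, 69.7% for Hk1, 67.6% for Pfkfb3 (62.5%), 98.1% for Pgam1 (95.6%) and 28.0% for Pdk3. The cause of the other changes was not tested. With 4 tumors a group, the exact permutation test gave an unadjusted 0.143 for Slc2a1, 0.0571 for Hk1 and 0.0286 for Hk2. The last is the smallest value this test allows, and none of the 3 genes passed after adjustment in edgeR's test.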
